A study of Microtus ochrogaster with 40 samples.

Results

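The 5 muscarinic acetylcholine receptor genes, Chrm1 to Chrm5, are described here in nuclei of the prairie vole nucleus accumbens. The rule that defines them lists gene names and uses no measured value, although the family was taken up with earlier results of these data known, and all 5 were found among the 19130 genes listed for each library. Their identifiers are ENSMOCG00000002497 (Chrm1), ENSMOCG00000007177 (Chrm2), ENSMOCG00000005385 (Chrm3), ENSMOCG00000016103 (Chrm4) and ENSMOCG00000010076 (Chrm5). The study sequenced RNA of single nuclei in 40 prairie voles (Microtus ochrogaster), with 1 library per animal from its own dissected accumbens. Every animal had lived for 16 days with 1 partner. The groups were females with an opposite-sex mate (n = 11), females with a same-sex peer (n = 8), males with a mate (n = 11) and males with a peer (n = 10). All animals shared the housing time, and neither their ages, a genotype nor the identity of partners is given in the labels, so partners that lived together may not be independent.

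Muscarinic receptors are the G protein-coupled receptors for acetylcholine. The M1, M3 and M5 receptors, made from Chrm1, Chrm3 and Chrm5, couple to Gq proteins that activate phospholipase C, and the M2 and M4 receptors, made from Chrm2 and Chrm4, couple to Gi and Go proteins that lower cyclic AMP. In the striatum, acetylcholine comes mainly from sparse cholinergic interneurons, M1 is known on spiny projection neurons of both kinds, M4 on those with the D1 dopamine receptor and as an autoreceptor on cholinergic interneurons.

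Counts of unique molecular identifiers (UMIs, each standing for 1 captured RNA molecule) were available for every barcode. After filtering, 177991 of 194518 barcodes remained, with 1767 to 7661 nuclei and 2944508 to 13681226 UMIs per library and a median of 658 to 2203 UMIs per nucleus. Male mate 2 had the lowest depth per nucleus and held 6375 barcodes under 500 UMIs. A glutamate neuron-like cluster of 3287 nuclei came to 61.42% from 1 library. Of 171078 distinct barcodes, 21545 occurred in more than 1 library, and no pair of libraries shared more than 2.216% of the barcodes of the smaller one. Levels are given as CPM, the gene's UMIs summed over the nuclei of a class in 1 animal and divided by all UMIs of those nuclei and scaled to a total of 1000000, so they are shares of the RNA of a class and not amounts per cell. Levels of different receptors were not set against each other, because how well the RNA of each gene was captured and counted is not known here.

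Nuclei were clustered without the 5 receptor genes, and clusters were named "X-like" from marker lists. The levels of these markers restate the naming and test nothing. DRD1A, the D1 receptor gene as these files spell it, was at 968 ± 100 CPM (SD, n = 40) in D1 medium spiny neuron-like nuclei and 24.9 ± 9.37 in their D2 medium spiny counterparts. DRD2, the D2 receptor gene, was at 6.45 ± 3.05 CPM in the first and 363 ± 73.0 in the second. Chat, which encodes the enzyme that makes acetylcholine, was at 727 ± 145 CPM (SD, n = 25) in cholinergic interneuron-like nuclei and had a mean of at most 1.94 CPM in every other class. Neuronal genes were also counted in non-neuronal classes: astrocyte-like nuclei held 24.5 ± 11.5 CPM of DRD1A (SD, n = 39), and endothelial-like nuclei 126 ± 63.2 (SD, n = 36). Whether these UMIs come from free RNA was not tested. A receptor level in a class near its level in non-neuronal classes cannot be told apart from background by CPM alone. The classes differ in depth, so the same CPM can stand for different UMIs per nucleus. The classes were drawn from other genes of the same nuclei, and p-values between classes take them as given.

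Of the Gq-coupled receptors, Chrm1 was spread over all spiny neuron-like and glutamate neuron-like classes, and its UMIs were divided between D1 (25.0%), D2 (25.3%) and glutamate neuron-like nuclei (22.8%). Its highest mean, 376 ± 77.2 CPM (SD, n = 36), was in a cluster led by Dlk1 and Pdyn whose DRD1A level was 785 ± 137 CPM. Eccentric medium spiny neuron-like nuclei, which carry DRD1A and are marked by Otof and Foxp2, followed at 312 ± 48.6 CPM (SD, n = 40), and a cluster led by Col14a1 and Shisa8 at 304 ± 61.9 CPM (SD, n = 39). D2 nuclei were at 264 ± 39.6 CPM (SD, n = 40), D1 nuclei at 256 ± 41.4, a cluster led by Krt15 and Prok2 at 236 ± 46.6, glutamate neuron-like nuclei at 235 ± 37.8 and a cluster led by Stmn1 and Cck, which also holds the glutamate transporter gene Slc17a7 at 1560 ± 420 CPM, at 219 ± 41.7. The Stmn1 and Cck cluster had a median of 886 UMIs per nucleus, and its leading genes included the mitochondrial ATP8, ND4L, ATP6, ND5 and CYTB. Whether it holds glutamate neurons alone was not tested. Interneuron levels of Chrm1 were lower, at 89.6 ± 33.7 CPM in a cluster with Pvalb and Sst and 89.0 ± 36.0 in a cluster with Kit and Vip (SD, n = 40). Astrocyte-like nuclei held 21.1 ± 10.8 CPM (SD, n = 39), mature oligodendrocyte-like nuclei 28.1 ± 18.2 (SD, n = 40) and endothelial-like nuclei 75.2 ± 47.2 (SD, n = 36). The endothelial-like mean lay near those of both interneuron clusters, and no step between neighbours from these clusters down to it passed the threshold. The somatostatin interneuron-like (11.7 ± 13.0 CPM, n = 31) and cholinergic interneuron-like means (17.1 ± 19.8, n = 25) were the lowest of all, and neither differed from its neighbour in the order (adjusted permutation p 0.882 between astrocyte-like and cholinergic interneuron-like nuclei, and 0.986 between the latter and somatostatin interneuron-like nuclei).

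Neighbours in this order were compared within animals by a two-sided permutation test that flips the sign of each animal's difference, with 100000 resamples and adjustment over the 100 neighbour comparisons of the 5 genes, of which 11 had an adjusted p under 0.05. The smallest p such a test can give is 1e-05. For Chrm1, the Dlk1 and Pdyn cluster exceeded eccentric nuclei in 28 of 36 animals (mean difference 59.0 CPM, adjusted permutation p 4.29e-04). The Col14a1 and Shisa8 cluster exceeded D2 nuclei in 31 of 39 animals (38.3 CPM, adjusted permutation p 0.00156). The step from the Stmn1 and Cck cluster down to the interneuron cluster with Pvalb and Sst held in 40 of 40 animals (129 CPM, adjusted permutation p 2.00e-04). The 4 steps from D2 nuclei down through D1 nuclei, the Krt15 and Prok2 cluster and glutamate neuron-like nuclei to the Stmn1 and Cck cluster did not pass this threshold, with adjusted permutation p from 0.118 to 1.00.

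**Figure D1:**
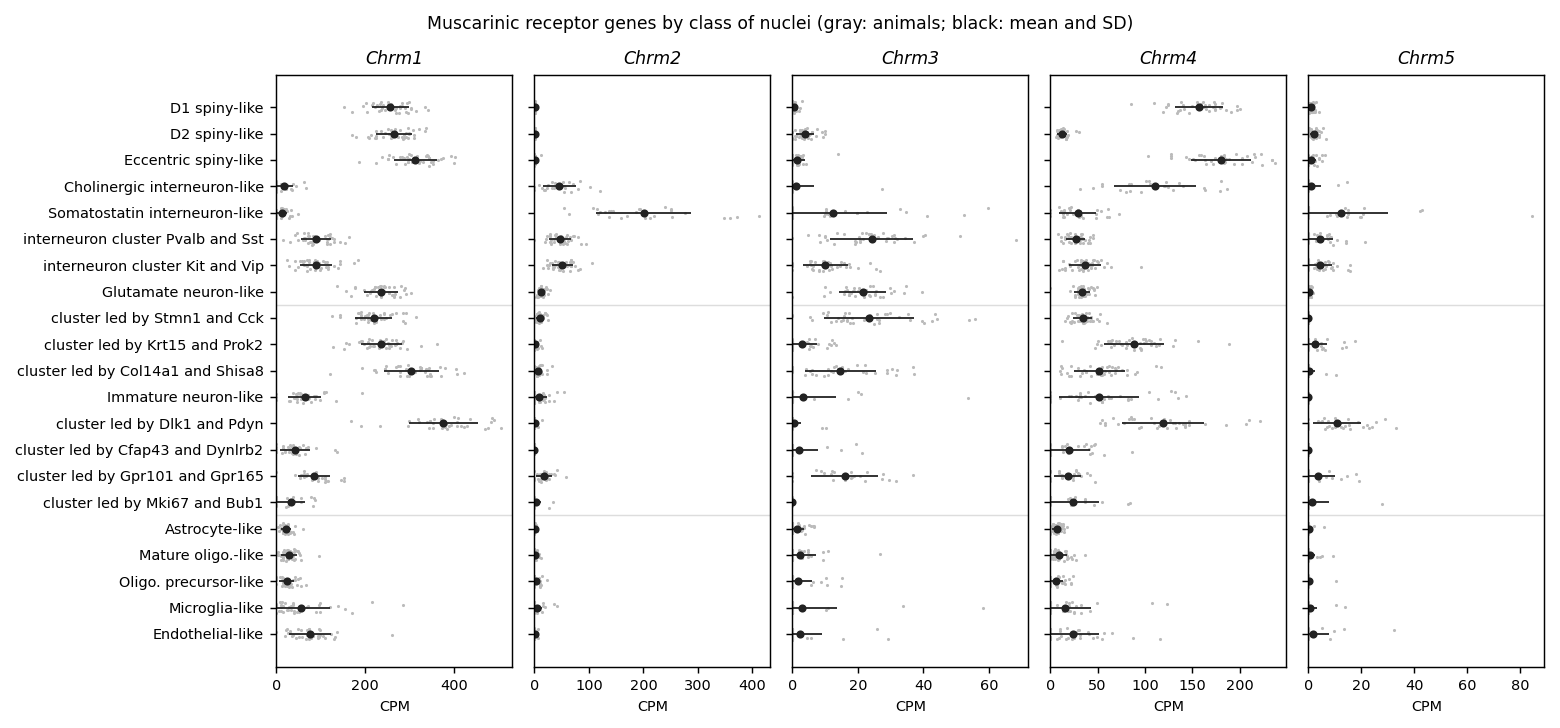
Level of each receptor gene (x axis, CPM, a separate scale for each gene) by class or cluster of nuclei (y axis); gray points are animals, black points and bars the mean and SD over 19 to 40 animals. Chrm1 lies high in all spiny and glutamate classes, Chrm4 in D1 but not D2 spiny nuclei, and Chrm2 in somatostatin interneuron-like nuclei at 200 ± 87.7 CPM.

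Chrm3 was a sparse gene, with 2818 UMIs in all kept nuclei, and 51.4% of them came from glutamate neuron-like nuclei. Its level was 24.2 ± 12.7 CPM (SD, n = 40) in the interneuron cluster with Pvalb and Sst, 23.3 ± 13.7 in the Stmn1 and Cck cluster and 21.4 ± 7.31 in glutamate neuron-like nuclei, and these 3 showed no difference between neighbours past the threshold (adjusted permutation p 1.00 and 0.969). Among clusters within the glutamate class, the one led by Nr4a2 and Slc26a4 held 37.6 ± 15.3 CPM (SD, n = 38) and the one led by Rxfp2 held 15.1 ± 8.22 (SD, n = 39). The Kit and Vip cluster was at 10.1 ± 6.87 CPM and exceeded D2 nuclei, at 3.74 ± 2.77, in 31 of 40 animals (adjusted permutation p 2.00e-04). D1 nuclei were at 0.550 ± 0.649 CPM, below the 1.54 ± 2.17 CPM of astrocyte-like nuclei.

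Chrm5 was the gene with the fewest UMIs, 497 over all kept nuclei, so its class levels rest on few molecules. Somatostatin interneuron-like nuclei held 12.3 ± 17.7 CPM (SD, n = 31), from 28 UMIs in all and with 13 animals at 0. The highest of these values, 84.7 CPM in male mate 2, came from 2 UMIs. The Dlk1 and Pdyn cluster held 10.9 ± 9.06 CPM (SD, n = 36), from 52 UMIs, and exceeded the interneuron cluster with Pvalb and Sst in 21 of 36 animals (mean difference 6.37 CPM, adjusted permutation p 0.00400). That interneuron cluster was at 4.28 ± 5.05 CPM, the Kit and Vip cluster at 4.24 ± 4.70, D2 nuclei at 2.10 ± 1.64 and D1 nuclei at 1.10 ± 0.987 (SD, n = 40). In glutamate neuron-like nuclei the level was 0.388 ± 0.503 CPM, and no UMI of Chrm5 was found in the Stmn1 and Cck cluster, which allows a level of up to 0.230 CPM over its pooled nuclei (upper end of the exact 95% Poisson interval, counting error only).

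Of the Gi-coupled receptors, Chrm2 was highest in interneurons. Somatostatin interneuron-like nuclei, which carry Npy, Nos1 and Chodl beside Sst, held 200 ± 87.7 CPM (SD, n = 31), with a lowest value of 53.7, a median of 193 and a highest of 412. Their level exceeded that of the Kit and Vip cluster in 31 of 31 animals (mean difference 150 CPM, adjusted permutation p 2.00e-04). The Kit and Vip cluster (50.9 ± 19.2 CPM, n = 40), the Pvalb and Sst cluster (47.0 ± 19.3, n = 40) and cholinergic interneuron-like nuclei (45.6 ± 30.6, n = 25) showed no difference between neighbours past the threshold (adjusted permutation p 0.969 and 1.00). Glutamate neuron-like nuclei held 12.5 ± 5.84 CPM, which is 29.7% of all Chrm2 UMIs because the class is large, against 19.6% from the 1314 somatostatin interneuron-like nuclei. In D1 and D2 nuclei the level was 0.323 ± 0.441 and 0.437 ± 0.527 CPM, no higher than the 0.615 ± 1.33 CPM of astrocyte-like nuclei.

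Chrm4 was led by the classes with DRD1A. Eccentric nuclei held 180 ± 31.8 CPM (lowest 103, median 180, highest 237) and D1 nuclei 157 ± 25.7 (lowest 85.1, median 160, highest 200; SD, n = 40). Eccentric nuclei exceeded D1 nuclei in 32 of 40 animals (mean difference 22.9 CPM, adjusted permutation p 4.29e-04), and D1 nuclei exceeded the Dlk1 and Pdyn cluster, at 119 ± 43.4 CPM, in 31 of 36 (40.8 CPM, adjusted permutation p 2.00e-04). Cholinergic interneuron-like nuclei came next at 110 ± 43.1 CPM (SD, n = 25; lowest 31.4, median 105, highest 187), and no difference past the threshold was found from the Dlk1 and Pdyn cluster (adjusted permutation p 1.00) or from the Krt15 and Prok2 cluster at 88.6 ± 31.6 (adjusted permutation p 0.303). Immature neuron-like nuclei held 51.1 ± 42.1 CPM (SD, n = 37), the Kit and Vip cluster 36.7 ± 16.6 and glutamate neuron-like nuclei 33.6 ± 8.54. Astrocyte-like nuclei were at 6.58 ± 4.69 CPM and mature oligodendrocyte-like nuclei at 9.05 ± 8.99. D2 nuclei, at 12.0 ± 5.04 CPM, lay within the range of the non-neuronal classes. Pooled over animals they were at 11.8 (exact 95% Poisson interval 11.0 to 12.7), above astrocyte-like nuclei at 6.52 (5.29 to 7.94) and below endothelial-like nuclei at 22.6 (17.8 to 28.3). These intervals hold counting error only. The SD between animals within groups was larger, at 1.64, 1.11 and 1.49 times that of counting alone in D2, astrocyte-like and endothelial-like nuclei. Per nucleus, D2 nuclei held 0.0260 Chrm4 UMIs, against 0.00549 in astrocyte-like, 0.00639 in mature oligodendrocyte-like, 0.00803 in microglia-like and 0.0436 in endothelial-like nuclei. The D2 mean joins a cluster at 6.14 CPM and a smaller one at 31.9, the latter above the endothelial-like mean of 23.7.

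D1 and D2 nuclei of the same animals were then compared by edgeR's quasi-likelihood test on summed counts, with the animal as a block, over 10245 genes. Of all genes tested, 30.3% were called at an adjusted p under 0.05, 15.4% higher in D1 nuclei and 14.9% higher in D2 nuclei. Chrm1 and Chrm4 passed the filter on low counts, and Chrm4 was called while Chrm1 was not. Chrm4 was higher in D1 nuclei by 3.77 on the log2 scale (SE 0.05, edgeR adjusted p 1.02e-78), which places it at rank 7 of all genes tested when they are ordered from the highest D1 fold change. The ratio of the class means was 13.1. Its lowest D1 value, 85.1 CPM in male mate 2, lay above its highest D2 value, 30.5 CPM in female mate 6, so the classes did not overlap over 40 animals. Only 0.342% of the genes tested separated the classes in this way (35 genes). Chrm1 differed by -0.04 on the log2 scale (SE 0.02, edgeR adjusted p 0.0652), with a higher D1 value in 18 animals and a higher D2 value in 22. The interval from -56.2 to 33.8 CPM held every animal's difference in Chrm1, against levels of 153 to 341 CPM in D1 and 169 to 337 CPM in D2 nuclei.

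Chrm2, Chrm3 and Chrm5 did not reach the filter, and an edgeR fit of 17150 genes without it was used for them, in which 19.7% of genes were called, 9.73% higher in D1 nuclei and 9.95% higher in D2 nuclei. This fit also called Chrm1, at -0.05 on the log2 scale (adjusted p 0.0471). Chrm3 was lower in D1 than in D2 nuclei, by -2.82 on the log2 scale (SE 0.22, edgeR adjusted p 2.98e-36), and D2 nuclei were higher in 34 of 40 animals. These levels rest on 35 UMIs in D1 and 275 in D2 nuclei. Chrm5 was lower by -0.96 on the same scale (SE 0.22, edgeR adjusted p 1.38e-04), from 76 and 150 UMIs, and was higher in D2 nuclei of 26 animals and in D1 nuclei of 12. Chrm2 showed no difference past the threshold (-0.54, SE 0.42, edgeR adjusted p 0.482), from 23 and 36 UMIs, and both levels lay near that of astrocyte-like nuclei. Pooled over animals, Chrm3 in D2 nuclei was at 4.11 CPM (exact 95% Poisson interval 3.64 to 4.62), against 1.33 (0.813 to 2.05) in astrocyte-like and 1.73 (1.01 to 2.76) in mature oligodendrocyte-like nuclei. These intervals, and those that follow, hold counting error only and not the spread between animals. The wider intervals of endothelial-like nuclei, at 2.11 CPM (0.848 to 4.34), and microglia-like nuclei, at 2.17 (0.874 to 4.48), overlapped that of D2 nuclei. Chrm5 in D2 nuclei was at 2.24 CPM (1.90 to 2.63), against 0.200 (0.0412 to 0.583) in astrocyte-like nuclei, and the intervals of endothelial-like nuclei, at 1.51 (0.489 to 3.51), and microglia-like nuclei, at 0.621 (0.0752 to 2.24), overlapped it. Per nucleus, D2 nuclei held 0.00904 Chrm3 UMIs, against 0.00112 in astrocyte-like, 0.00407 in endothelial-like and 0.00156 in microglia-like nuclei. For Chrm5 the values were 0.00493 against 1.68e-04, 0.00291 and 4.46e-04. Depth differed too, with medians of 1993, 785, 1112 and 613.5 UMIs in the same order.

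**Figure D2:**
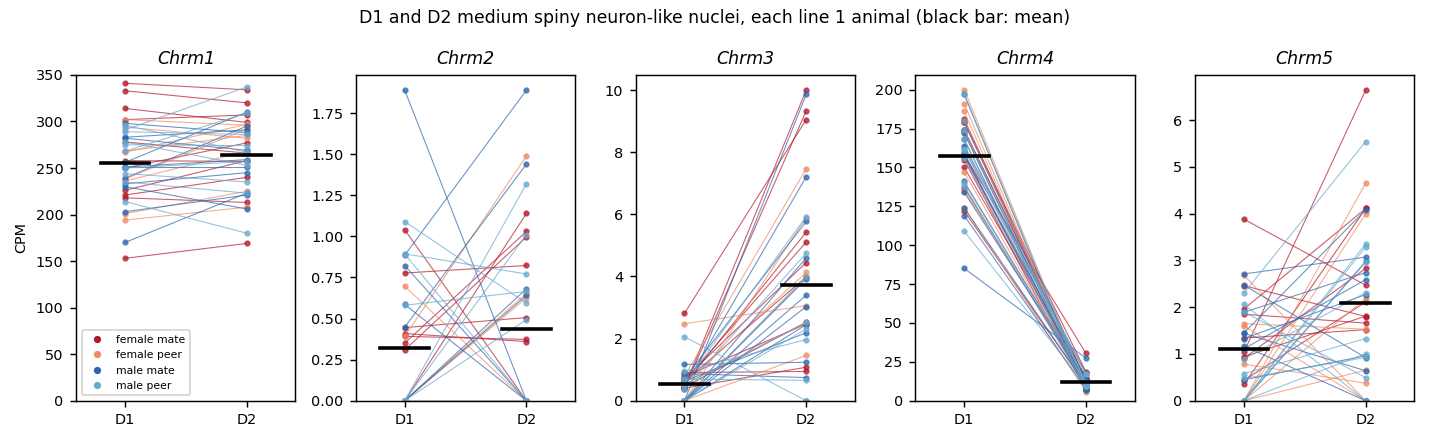
Level of each receptor gene (y axis, CPM, a separate scale for each gene) in D1 and D2 medium spiny neuron-like nuclei; each line is 1 of 40 animals, colored by group, and black bars are the class means. All 40 lines of Chrm4 fall from D1 to D2, those of Chrm1 run in both directions, and Chrm3 is higher in D2 nuclei of 34 animals.

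D1 and D2 nuclei were also drawn without a cluster boundary between them, as spiny neuron-like nuclei with a DRD1A UMI and none of DRD2 (32350 nuclei) against the reverse (14716 nuclei). Chrm4 was at 166 ± 23.0 CPM in the first and 10.8 ± 5.90 in the second, higher in 40 of 40 animals (adjusted permutation p 2.50e-05). Chrm1 was at 273 ± 36.1 and 267 ± 42.0 CPM, higher on the DRD1A side in 25 of 40 animals (adjusted permutation p 0.183). The sign of this small difference was opposite to that between the D1 and D2 classes, but the gates also changed which classes were compared. Chrm3 was at 1.03 ± 1.53 and 4.05 ± 3.97 CPM (adjusted permutation p 2.50e-05) and Chrm5 at 1.06 ± 0.974 and 2.06 ± 1.82 CPM (adjusted permutation p 0.00645; SD, n = 40 throughout). Eccentric nuclei made up 8221 of the nuclei in the DRD1A gate and 31 of those in the DRD2 gate, so the DRD1A side is not D1 nuclei alone. Chrm1 was at 312 ± 48.6 CPM in eccentric nuclei, against 256 ± 41.4 in D1 nuclei. Whether the sign of the Chrm1 difference turns without eccentric nuclei was not tested.

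D2 nuclei were not uniform in Chrm4. The D2 class joined a cluster of 23701 nuclei led by Adora2a, in which Chrm4 was at 6.14 ± 3.13 CPM, and a cluster of 6733 nuclei led by Fosb and Cpne7, in which it was at 31.9 ± 15.7 (SD, n = 40); the second value was higher in 40 of 40 animals. DRD1A did not follow: it was at 25.7 ± 10.6 CPM in the first and 22.7 ± 11.1 in the second, both at the astrocyte-like level of DRD1A. DRD2 was at 363 ± 73.2 and 359 ± 85.0 CPM. In a separate clustering at resolution 2, a D2 cluster of 5441 nuclei led by Cpne7 held 39.6 ± 18.6 CPM of Chrm4 (SD, n = 40), while a D2 cluster of 1622 nuclei led by Nts and the activity-induced genes Fosb, Npas4 and Arc held 5.04 ± 14.0 (SD, n = 28). The other D2 clusters were at 4.94 ± 3.66 (led by Nts and Penk) and 6.84 ± 4.77 (led by Adora2a and Npffr2). These clusters were made from the same nuclei, and their differences are a description without a test.

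Chrm1 also varied among the finer spiny clusters. In D2 nuclei it was at 343 ± 68.3 CPM in the Cpne7 cluster, 289 ± 40.0 in the Nts and Penk cluster and 191 ± 33.1 in the Adora2a and Npffr2 cluster, whose leading genes include Col24a1 (SD, n = 40), and at 261 ± 71.0 in the Nts, Fosb and Npas4 cluster (SD, n = 28). In D1 nuclei it was at 282 ± 39.8 CPM in a cluster led by Reln and Pdyn, 227 ± 41.4 in a cluster led by Col24a1 and 267 ± 58.9 in a cluster led by Npas4 and Fosb (SD, n = 35). In both classes the cluster with Col24a1 among its leading genes had the lowest Chrm1 mean of those clusters. Chrm4 in D1 nuclei was at 151 ± 33.4 CPM in the Reln and Pdyn cluster, 165 ± 33.3 in the Col24a1 cluster and 152 ± 38.6 (SD, n = 35) in a D1 cluster led by Npas4 and Fosb, values that overlapped widely.

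The share of nuclei with at least 1 UMI was taken after each nucleus was thinned to 1000 UMIs, since depth differed between classes; the value without thinning follows each share. Chrm1 was found in 22.4% ± 3.20 of D1 nuclei (43.9% unthinned) and 22.5% ± 3.87 of D2 nuclei (41.5%), and Chrm4 in 14.1% ± 2.94 of D1 nuclei (30.6%) and 0.939% ± 0.402 of D2 nuclei (2.41%; SD over 40 animals). In astrocyte-like nuclei the shares were 2.93% ± 2.58 for Chrm1 (1.63%) and 0.833% ± 1.37 for Chrm4 (0.566%; n = 37 thinned), and in endothelial-like nuclei 5.47% ± 5.20 (9.90%) and 2.02% ± 2.26 (3.54%; n = 22 thinned). Only 299 microglia-like nuclei reached 1000 UMIs, and pooled over animals 12.7% of them held a Chrm1 UMI (2.48% unthinned) and 2.34% a Chrm4 UMI (0.736%). The Chrm4 share of D2 nuclei lay between those of astrocyte-like and endothelial-like nuclei, thinned and unthinned. In astrocyte-like and microglia-like nuclei the thinned shares were above the unthinned ones, although thinning a nucleus can only remove UMIs. The nuclei deep enough for thinning therefore differ from the rest of these classes, and their thinned shares are a limited background. Thinning left out 652 D1 and 1417 D2 nuclei but 14394 of 17849 astrocyte-like nuclei, whose median depth was 785 UMIs against 2166 in D1 and 1993 in D2 nuclei. In D1 nuclei, 3.27% held a UMI of both Chrm1 and Chrm4, close to the 3.37% given by the product of the separate shares.

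Interneurons were compared with D1 and D2 spiny nuclei summed together, in each animal with enough nuclei. Most genes differ in such comparisons: 69.1% of tested genes were called for cholinergic interneuron-like nuclei (25 animals), 66.5% for somatostatin interneuron-like nuclei (31 animals), 80.3% for the Pvalb and Sst cluster and 77.1% for the Kit and Vip cluster (40 animals each). In that order, 32.6%, 33.0%, 40.0% and 38.3% of tested genes were called higher and 36.6%, 33.5%, 40.3% and 38.8% lower. A call of a receptor is read against those shares. The size of a receptor's difference was not ranked among all tested genes in these comparisons. Chrm1 was lower in all 4, with log2 fold changes of -4.03 (SE 0.17), -4.42 (SE 0.15), -1.57 (SE 0.07) and -1.65 (SE 0.07) in that order and edgeR adjusted p of at most 9.13e-32. In cholinergic and somatostatin interneuron-like nuclei Chrm1 was found in 2.63% ± 4.42 (3.44% unthinned) and 1.08% ± 2.01 (2.20%) of thinned nuclei (SD over 15 and 28 animals). The thinned shares were at or below that of astrocyte-like nuclei, a limited background, and the unthinned ones were above the astrocyte-like 1.63%. Unthinned shares also depend on depth, with medians of 2212 and 1986.5 UMIs in these classes against 785 in astrocyte-like nuclei.

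Cholinergic interneuron-like nuclei were low in Chrm1 but held the Gi-coupled Chrm4. It was found in 12.4% ± 4.62 of thinned nuclei (SD over 15 animals; 21.6% unthinned), while DRD1A, the marker of the spiny neurons that carry most Chrm4, was at 22.0 ± 32.1 CPM in them, near the 24.5 CPM of astrocyte-like nuclei. Their Chrm4 level was 0.30 higher on the log2 scale than that of spiny nuclei (SE 0.11, edgeR adjusted p 0.0129), a sum that includes D2 nuclei with little Chrm4. This call was lost with DESeq2 (0.21, adjusted p 0.110), with RLE factors (0.23, adjusted p 0.0502) and without the filter (0.11, adjusted p 0.469), where the median of all genes moved to -0.26. In the other interneurons Chrm4 was lower than in spiny nuclei, by log2 fold changes of -1.52 (SE 0.14, somatostatin), -1.75 (SE 0.08, Pvalb and Sst) and -1.27 (SE 0.08, Kit and Vip), with edgeR adjusted p of at most 4.81e-17.

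Chrm2 was higher in every interneuron class than in spiny nuclei, whose own level lay near that of astrocyte-like nuclei. All kept D1 and D2 nuclei held only 23 and 36 Chrm2 UMIs. The gene did not reach the filter between D1 and D2 nuclei, so where it passed here, it passed through the interneuron side. The sizes of the fold changes and their p therefore rest on few spiny UMIs. The fitted log2 fold changes were 8.55 (SE 0.18) in somatostatin interneuron-like nuclei, 6.48 (SE 0.17) in the Pvalb and Sst cluster and 6.60 (SE 0.18) in the Kit and Vip cluster, with edgeR adjusted p of at most 1.01e-43, and 6.22 (SE 0.30, adjusted p 1.21e-24) in cholinergic interneuron-like nuclei in the fit without the filter. Chrm2 was found in 16.5% ± 8.73 of thinned somatostatin interneuron-like nuclei (30.9% unthinned) and in 0.0850% ± 0.314 of astrocyte-like nuclei (0.0539%). These nuclei also held DRD1A at 186 ± 55.1 CPM, above the astrocyte-like level, and DRD2 at 6.81 ± 9.19 CPM.

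Chrm3 and Chrm5 were below the filter in all 4 interneuron comparisons and were taken from the edgeR fits without it. Those fits called 45.7% of genes for cholinergic interneuron-like nuclei (18.3% higher, 27.4% lower), 43.5% for somatostatin interneuron-like nuclei (17.3%, 26.2%), 60.8% for the Pvalb and Sst cluster (28.1%, 32.7%) and 58.2% for the Kit and Vip cluster (25.6%, 32.6%). Chrm3 was higher than in spiny nuclei in the Pvalb and Sst cluster (log2 fold change 3.36, SE 0.18), in somatostatin interneuron-like nuclei (2.42, SE 0.36) and in the Kit and Vip cluster (2.01, SE 0.23), with edgeR adjusted p of at most 9.11e-08. In cholinergic interneuron-like nuclei it had 2 UMIs in all, with 24 of 25 animals at 0 (log2 fold change -2.49, SE 0.73, edgeR adjusted p 0.0213). Chrm5 was higher in the somatostatin class (2.55, SE 0.36, adjusted p 2.83e-08), in the Pvalb and Sst cluster (1.25, SE 0.30, adjusted p 2.79e-04) and in the Kit and Vip cluster (1.25, SE 0.31, adjusted p 4.01e-04), and was not called in cholinergic interneuron-like nuclei (2 UMIs, edgeR adjusted p 0.403).

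**Figure D3:**
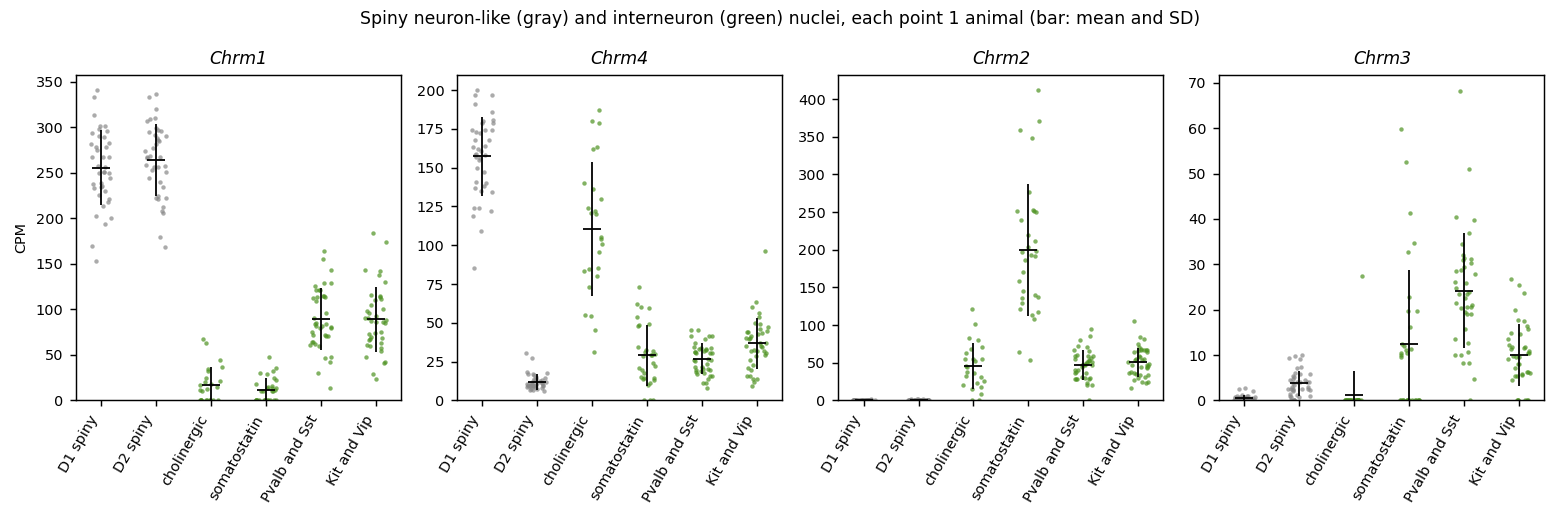
Levels of Chrm1, Chrm4, Chrm2 and Chrm3 (y axes, CPM, a separate scale for each) in D1 and D2 spiny neuron-like nuclei (gray) and 4 kinds of interneuron (green); each point is 1 animal and bars are the mean and SD over 25 to 40 animals. Cholinergic interneuron-like nuclei lie near the bottom of the Chrm1 panel and at 110 ± 43.1 CPM in the Chrm4 panel, and somatostatin interneuron-like nuclei stand highest for Chrm2.

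For each receptor, the genes with the most similar pattern were sought among 12197 genes by Pearson's r of log2(mean CPM + 5) over 21 classes and clusters, a description across classes that come from the same libraries. For Chrm1 they were Kcnj4 (r 0.958), an inward rectifier potassium channel gene, Cmya5 (0.954) and Camkv (0.929). For Chrm4 they were Sntg2 (0.844), Vstm2l (0.798) and Slc2a13 (0.789), the first and second of which were highest in cholinergic interneuron-like nuclei. For Chrm2 they were Pip5kl1 (0.931), Lhx6 (0.931), a transcription factor gene of interneurons from the medial ganglionic eminence, and Unc119 (0.912). For Chrm3 they were Sowahb (0.922), Vsnl1 (0.922) and Slc6a7 (0.918), and for Chrm5 Npy2r (0.822), Vat1l (0.790) and Fam83b (0.781). Among the receptors themselves, r was 0.53 between Chrm1 and Chrm4, 0.59 between Chrm2 and Chrm3 and -0.36 between Chrm1 and Chrm2.

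A list of 37 genes of acetylcholine handling and muscarinic signaling, of which 31 were used, gives the surroundings of the receptors. Between D1 and D2 nuclei, 19 were tested, 10 were higher in D1 and 3 higher in D2 nuclei by edgeR (15.4% and 14.9% of all genes tested), with a median log2 fold change of 0.11 against 0.00 over all genes tested. Chrna4 and Chrna7, which encode nicotinic receptor subunits, differed in opposite directions (-1.46, SE 0.10, and 0.48, SE 0.04). On the Gi side, Gnai1, a Gi protein subunit, was higher in D1 nuclei (0.54, SE 0.03), as was Adcy5 (0.27, SE 0.01), the main adenylyl cyclase of spiny neurons. On the Gq side, Prkca, a protein kinase C, was higher in D1 nuclei (0.59, SE 0.09), and Itpr1, the IP3 receptor of the calcium store, differed by 0.08 (SE 0.01). Kcnq5, a channel gene that muscarinic receptors are known to regulate, differed by 0.16 (SE 0.02). Ache, which breaks acetylcholine down, differed by -0.11 (SE 0.03), Bche by 0.62 (SE 0.10), Grk2, a receptor kinase, by 0.17 (SE 0.05) and Rgs9, which speeds the turn-off of Gi proteins, by -0.05 (SE 0.01), all with an edgeR adjusted p of at most 0.00380.

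In interneurons the same list was divided in direction. Against spiny nuclei, 8 were higher and 8 lower of 17 tested in cholinergic interneuron-like nuclei, 5 and 7 of 12 in somatostatin interneuron-like nuclei, 10 and 7 of 18 in the Pvalb and Sst cluster and 11 and 7 of 19 in the Kit and Vip cluster. Over all genes tested the higher and lower shares were 32.6% and 36.6%, 33.0% and 33.5%, 40.0% and 40.3%, and 38.3% and 38.8% in that order. Their medians were 0.07, -0.82, 0.24 and 0.42, against medians over all genes between -0.04 and -0.00. Adcy5, Rgs9, Itpr1 and Kcnq5 were lower in all 4, with log2 fold changes from -4.41 to -3.44 for Adcy5, from -5.22 to -3.40 for Rgs9, from -3.46 to -2.07 for Itpr1 and from -3.28 to -1.53 for Kcnq5 (edgeR adjusted p of at most 3.30e-28). Plcb4, a phospholipase C of the Gq cascade, was higher in the 3 kinds in which it was tested, cholinergic (6.38, SE 0.15), somatostatin (4.71, SE 0.19) and the Pvalb and Sst cluster (3.92, SE 0.16; edgeR adjusted p of at most 5.94e-33). Chrna7 was lower in cholinergic interneuron-like nuclei (-1.54, SE 0.23) and higher in the other 3 (0.64, 0.60 and 1.23), with edgeR adjusted p of at most 4.49e-06. Slc5a7, the choline transporter gene, and Chat, both on this list, are markers by which the cholinergic class was named. Rgs9 is 1 of the markers shared by spiny neurons, and a D1 or D2 name required a raised mean of those markers. The lower Rgs9 of interneurons, and the counts that include these genes, therefore restate the naming in part. Ache was higher in all 4, by 4.12 (SE 0.07), 3.26 (SE 0.06), 1.26 (SE 0.07) and 1.09 (SE 0.06) in the same order (edgeR adjusted p of at most 1.64e-25). Kcnj3, a subunit of G protein-gated potassium channels, was higher in the Pvalb and Sst cluster (4.06, SE 0.11) and in the Kit and Vip cluster (4.13, SE 0.10), and the nicotinic subunit gene Chrna3 in the Kit and Vip cluster (7.18, SE 0.16; edgeR adjusted p of at most 8.27e-44 for these).

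The study crossed sex with the type of partner, which asks whether receptor levels go with pairing, with sex or with both. Over all nuclei of an animal, Chrm1 was at 126, 218 and 278 CPM (lowest, median, highest) in female mates, 170, 222 and 247 in female peers, 179, 220 and 233 in male mates and 172, 220 and 234 in male peers. The 4 medians lay between 218 and 222 CPM, and all groups overlapped. Chrm4 was at 49.0, 68.8 and 86.6 CPM in female mates, 45.3, 62.5 and 78.8 in female peers, 45.0, 61.5 and 90.7 in male mates and 44.1, 62.4 and 83.8 in male peers. The group means of Chrm2 lay between 7.45 ± 2.47 CPM (female peers, n = 8) and 9.81 ± 4.31 (male peers, n = 10), and those of Chrm3 between 7.99 ± 2.01 (male peers, n = 10) and 9.03 ± 3.44 (female mates, n = 11). Chrm5 was at 1.65 ± 0.769 CPM in female mates (n = 11), 1.01 ± 0.476 in female peers (n = 8), 1.60 ± 0.533 in male mates (n = 11) and 1.53 ± 0.999 in male peers (n = 10). In sums over all nuclei, the makeup of the dissected tissue and the RNA per nucleus cannot be told apart.

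EdgeR called 0 of the 5 receptors for mates minus peers, for females minus males or for the difference between the pairing effects of the sexes, over 13723 genes of which 0%, 0.0219% and 0% were called. DESeq2 called none of them either, and none had an unadjusted p under 0.05 in these 3 contrasts with edgeR. Log2 differences of mates minus peers were -0.01 (SE 0.07) for Chrm1, 0.09 (SE 0.16) for Chrm2, 0.10 (SE 0.13) for Chrm3, 0.05 (SE 0.09) for Chrm4 and 0.36 (SE 0.22) for Chrm5, with edgeR adjusted p from 0.722 to 0.982. Within females alone, Chrm5 had a log2 difference of 0.69 (SE 0.33, unadjusted edgeR p 0.0421, adjusted p 0.635), and it was 0.02 (SE 0.30) within males.

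The difference between D1 and D2 nuclei of an animal did not go with its group past the threshold. For Chrm4 the D1 minus D2 difference was 0.26 smaller on the log2 scale in mates than in peers, a value of -0.26 (SE 0.14, unadjusted edgeR p 0.0637, adjusted p 1.000, where 0.00976% of all genes were called), and by sex it was -0.02 (SE 0.13, adjusted p 1.000, 0% of genes called). For Chrm1 both values were within 0.01 of 0. Chrm4 in D2 nuclei was at 6.64, 12.6 and 30.5 CPM (lowest, median, highest) in female mates, 5.84, 9.35 and 16.1 in female peers, 6.75, 10.1 and 27.4 in male mates and 9.31, 11.1 and 17.1 in male peers. In D1 nuclei the same groups stood at 122, 158 and 181, at 124, 168 and 200, at 85.1, 158 and 197 and at 109, 161 and 197 CPM. The groups overlapped in both classes, and the 2 highest D2 values, in female mate 6 and male mate 2, rest on 37 and 7 UMIs.

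**Figure D4:**
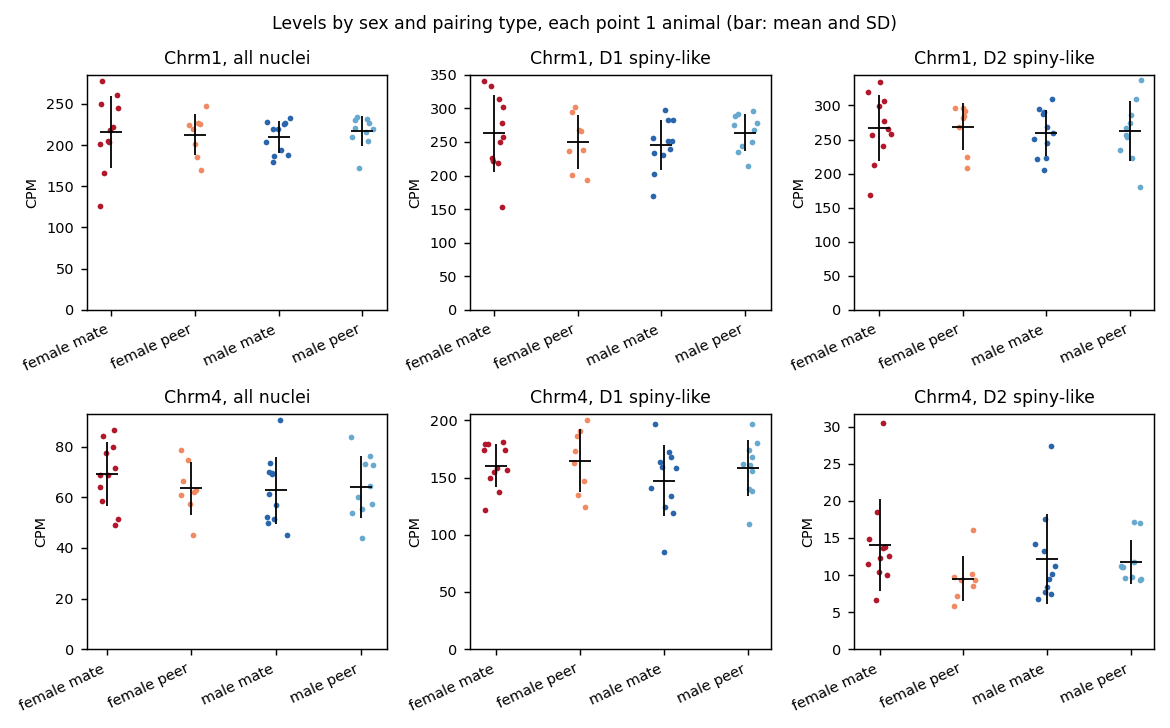
Levels of Chrm1 (top) and Chrm4 (bottom) in all nuclei, D1 and D2 medium spiny neuron-like nuclei (y axes, CPM) by group (x axis); each point is 1 animal and bars are the mean and SD over 8 to 11 animals. The groups overlap in every panel, and female mate 6 stands highest for Chrm4 in D2 nuclei at 30.5 CPM.

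Within classes, 24 pairs of a receptor and a class could be tested over 10 classes. EdgeR called 0 pairs for mates minus peers, where 9.63e-04% of all gene and class pairs were called, 0 for sex (0.0222%) and 0 for the pairing effect in females minus that in males (0%). An unadjusted p under 0.05 was reached by 4, 0 and 2 of the 24 pairs, and DESeq2 gave the same counts, with no call. The share for sex was 0% against 5.49% of all pairs, and that for the difference between the sexes 8.33% against 2.90%. The 4 for pairing (16.7%, against 5.13% of all pairs) were Chrm1 in eccentric nuclei (-0.15, SE 0.07, unadjusted p 0.0459), in glutamate neuron-like nuclei (-0.15, SE 0.07, p 0.0469) and in the Pvalb and Sst cluster (-0.32, SE 0.15, p 0.0343), and Chrm4 in the Kit and Vip cluster (0.40, SE 0.18, p 0.0287), all from edgeR with adjusted p of at least 0.733. Animals with an odd label number and the next even one shared a partner type in every case, and the labels do not say whether they were partners. With such pairs summed to 1 sample each, 2 of 31 pairs over 14 classes reached an unadjusted edgeR p under 0.05 (6.45%, against 4.99% of all pairs), and 0 were called. In eccentric nuclei Chrm1 was at 297 ± 49.5 CPM in mates (n = 22) and 331 ± 41.7 in peers (n = 18). In the Kit and Vip cluster Chrm4 was at 42.2 ± 17.7 CPM in mates (n = 22) and 29.9 ± 12.6 in peers (n = 18). The 2 for the difference between the sexes were Chrm4 in D2 nuclei (0.66, SE 0.32, unadjusted edgeR p 0.0425) and in the Dlk1 and Pdyn cluster (0.65, SE 0.29, unadjusted p 0.0297), both with an adjusted p of at least 0.998. Within females alone, 4 of the 24 pairs had an unadjusted p under 0.05 for mates minus peers (16.7%, against 4.81% of all pairs). DESeq2 gave 3. EdgeR called 0, where 0.00289% of all pairs were called. Among them were Chrm4 in D2 nuclei (0.57, SE 0.23, unadjusted p 0.0169) and Chrm1 in eccentric nuclei (-0.25, SE 0.11, unadjusted edgeR p 0.0270). The others were Chrm1 in the Kit and Vip cluster (-0.46, SE 0.23, p 0.0451) and Chrm3 in glutamate neuron-like nuclei (0.41, SE 0.19, p 0.0395). The edgeR adjusted p of these pairs was at least 0.935. Within males, it was 1 of 24 (4.17%, against 2.91%), Chrm4 in the Dlk1 and Pdyn cluster (-0.41, SE 0.21, unadjusted edgeR p 0.0496, adjusted p 1.000), and 0 were called (9.63e-04% of all pairs).

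The spread between animals is given beside the spread that counting error alone would give at these UMI numbers. The SD of Chrm1 within a group was 42.2 CPM in D1 nuclei and 41.1 CPM in D2 nuclei, each 2.75 times the SD that counting of its UMIs alone would give, and that of Chrm4 in D1 nuclei was 25.8 CPM, or 2.14 times. For Chrm2 in somatostatin interneuron-like nuclei the ratio was 1.60, and for Chrm5 in D1 nuclei 0.990, and ratios under 1 also occurred in other sets, such as Chrm1 in the Krt15 and Prok2 cluster (0.957) and Chrm4 in the Pvalb and Sst cluster (0.919). Over 40 animals, Chrm1 in D1 nuclei went with Chrm1 in D2 nuclei (Pearson's r 0.82, Spearman's rho 0.79, both with a permutation p of 1e-05, the smallest that 100000 resamples can give, and 7.00e-05 adjusted over 7 relations). Without the 2 animals farthest from the median, female mates 1 and 8, r was 0.76, and within the 4 groups it ran from 0.69 to 0.96. Female mate 1 was lowest in both classes, at 153 and 169 CPM. The compared classes of an animal share a library, and the part of the library in this relation was not tested.

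Chrm4 and Chrm1 in D1 nuclei also went together (r 0.68, rho 0.65, permutation p 2.00e-05 for each, adjusted p 7.00e-05; 0.61 without male mate 2 and male peer 1; 0.35 to 0.85 within groups). Chrm4 in D1 nuclei went with Chrm4 in eccentric nuclei (r 0.48, rho 0.46, permutation p 0.00164 and 0.00299, adjusted 0.00331 and 0.00698; 0.54 without the same 2 animals; 0.39 to 0.64 within groups). Chrm1 in D1 nuclei had an r of 0.47 with that in glutamate neuron-like nuclei (rho 0.41, adjusted permutation p 0.00331 and 0.0172) and of 0.44 with that in eccentric nuclei (rho 0.36, adjusted permutation p 0.00669 and 0.0304). Without female mates 1 and 8 these fell to 0.35 and 0.30, so they rest in part on those animals. The median UMIs per nucleus of a library had an r of 0.23 with Chrm1 in D1 nuclei (rho 0.05, permutation p 0.155 and 0.764) and of 0.40 with Chrm4 (rho 0.19, permutation p 0.0116 and 0.237, adjusted 0.0135 and 0.276); without male mate 2 and female peer 1 the values were 0.00 and 0.17, so the relation with Chrm4 rests on those libraries.

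**Figure D5:**
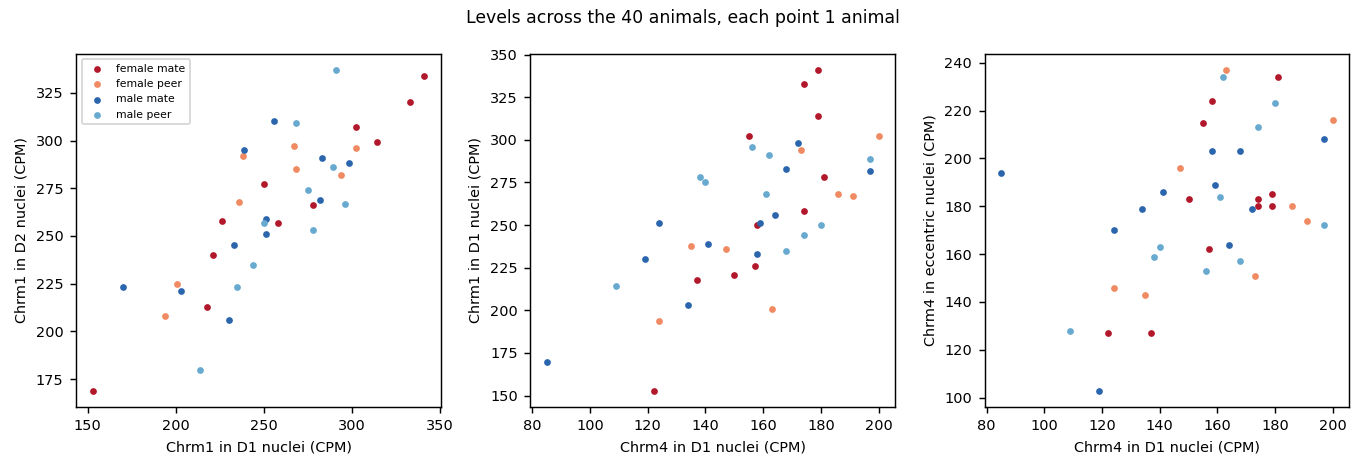
Levels across 40 animals (axes in CPM, not starting at 0, points colored by group): Chrm1 in D2 against D1 nuclei (left), Chrm1 against Chrm4 in D1 nuclei (middle) and Chrm4 in eccentric against D1 nuclei (right). Pearson's r is 0.82, 0.68 and 0.48, and animals of all 4 groups lie along each cloud.

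The level over all nuclei was set beside the share of a class. A class is part of all nuclei, so where it holds much of a gene's UMIs a positive relation is partly built in. D1 nuclei held 50.4% of Chrm4 UMIs, and D1 and D2 nuclei 25.0% and 25.3% of Chrm1 UMIs. The Pvalb and Sst cluster held 17.2% of Chrm2 UMIs, less than glutamate neuron-like (29.7%) or somatostatin interneuron-like nuclei (19.6%), whose shares were not used. How much of each relation is built in was not tested. Chrm4 over all nuclei went with the share of D1 nuclei, which ran from 2.76% to 23.4% between animals (r 0.62, rho 0.69, permutation p 2.00e-05 and 1e-05, adjusted over 3 relations 6.00e-05 and 3.00e-05; 0.66 without male mate 2 and female peer 1; 0.50 to 0.73 within groups). Chrm2 over all nuclei had an r of 0.39 with the share of the Pvalb and Sst cluster (rho 0.38, adjusted permutation p 0.0183 and 0.0240; 0.30 without male mate 2 and female mate 3; 0.22 to 0.68 within groups). Chrm1 had an r of 0.32 with the joint share of D1 and D2 nuclei (rho 0.35, adjusted permutation p 0.0460 and 0.0283; 0.32 without male mate 2 and female peer 1; 0.07 to 0.50 within groups).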

How the data were processed

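Single-nucleus RNA libraries of 40 voles were used, grouped by the sex and partner type in the labels. The authors deposited raw UMI counts per gene and barcode, made with Cell Ranger 3.1.0 per the submitters' processing notes; the genome build is not given in the sources used here. All 5 symbols were found in the RefSeq table of assembly MicOch1.0, used for names only.

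Barcodes under 500 UMIs (6375), above 5% mitochondrial UMIs (2148) or called doublets (8004, at an assumed rate of 0.8% per 1000 barcodes) were left out. Nuclei were clustered on 2000 variable genes, 30 principal components and 15 neighbours at Leiden resolution 1 (32 clusters), with the receptor genes left out; none ranked among those genes. Sums of under 20 nuclei were not used, and levels are described for classes that reach this in 10 or more animals. Of 118 marker genes, 109 were used.

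Counts were summed per animal and class and tested with edgeR 4.0.16 (quasi-likelihood, TMM factors, filterByExpr, Benjamini-Hochberg over all genes tested) in R 4.3.3, with DESeq2 1.42.0 as an alternative; scripts ran in Python 3.11.15. The animal was a block in comparisons between classes. Tests were checked on simulated data. Alternatives were doublets kept, resolution 2, 50 nuclei per animal, RLE factors, no filter, no block, receptor UMI gates, label numbers in blocks of 10, pairs of an odd label number and the next even one, summed or as a block (chosen after seeing the data), and male mate 2 or female peer 1 left out. P-values rest on the spread between these animals or, in comparisons of classes, between their within-animal differences. Poisson intervals over pooled nuclei hold counting error only.

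The receptors and gene lists were chosen with earlier results of these data known. Named genes are the 5 receptors, the genes of each role of the cholinergic list with the lowest p (2 per role for D1 against D2 nuclei, 1 per role for each kind of interneuron) and the 3 genes most like each receptor across classes. 1 gene that this rule would name is not reported here.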

Additional observations from a re-analysis of the deposited data

Results flagged for a closer look

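Among 41 sets of values with a median of at least 10 UMIs, each a receptor in a class within a group of 8 to 10 animals, 4 held an animal far from the rest of its group, and chance flags about 5% of such sets. Both mate groups have 11 animals, more than such a search takes, so mates were not searched. Chrm1 over all nuclei was at 172 CPM in male peer 1, from 507 UMIs, with the next male peer at 205. Chrm1 in glutamate neuron-like nuclei was at 168 CPM in female peer 4, from 131 UMIs, with the next at 234. Chrm4 in D2 nuclei was at 16.1 CPM in female peer 2, from 21 UMIs, with the next lower value at 10.1. Chrm4 in glutamate neuron-like nuclei was at 0 in male peer 5, which had 21 such nuclei, with the next at 24.1.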

How the results depend on the processing

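Over 439 alternatives of 90 results, 420 kept their direction and their side of the threshold or moved by less than the spread. Chrm4 in D1 minus D2 nuclei ran from 3.64 with doublets kept to 3.97 with the receptor UMI gates. The Chrm1 difference between D1 and D2 nuclei was -0.05 without the filter (edgeR adjusted p 0.0471, a call). It was 0.01 with the gates (adjusted p 0.837), whose DRD1A side also holds eccentric nuclei. Chrm4 in cholinergic interneuron-like minus spiny nuclei lost its call with DESeq2 (0.21), RLE factors (0.23) and no filter (0.11); the cause was not tested. Signs of 9 uncalled differences turned: beside the gates and the block of label pairs, the D1 minus D2 difference by pairing for Chrm1 at resolution 2 (0.00), that by sex for Chrm4 with DESeq2 (0.04), and, with label numbers in blocks of 10, mates minus peers for Chrm1 (0.07), the difference between the sexes for Chrm3 (-0.02) and, in males, Chrm1 (0.07), Chrm2 (0.02) and Chrm4 (0.06). Without thinning, shares of nuclei were 43.9% (Chrm1, D1), 41.5% (Chrm1, D2), 30.6% (Chrm4, D1), 2.41% (Chrm4, D2), 30.9% (Chrm2, somatostatin) and 21.6% (Chrm4, cholinergic).

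Without the animal block, 625 genes were higher and 617 lower in D1 than D2 nuclei, against 1575 and 1527. Without the filter, where more genes were tested, 3112 and 4665 genes were called higher and lower in cholinergic (against 2066 and 2319), 2963 and 4484 in somatostatin (against 2104 and 2138), 4861 and 5651 in Pvalb and Sst (against 3534 and 3559) and 4414 and 5628 in Kit and Vip nuclei (against 3034 and 3072). Without male mate 2, 3396 genes were lower in somatostatin nuclei, where 9890 in place of 6378 genes were tested. For the D1 minus D2 difference, the fit without the filter called 6 genes higher and 2 lower by pairing (against 1 and 0) and 5 and 6 by sex (against 0 and 0). Keeping the receptor genes for clustering was not run, since none ranked among the 2000 variable genes. At least 50 nuclei left too few animals for cholinergic and somatostatin nuclei. The replicate numbers follow accession order and pair no animals. Animals with an odd label number and the next even one form 20 pairs, each a female and a male mate or 2 peers of 1 sex, and the labels do not say that they are partners. Deviations from the group means over 13723 genes correlated at -0.143 to 0.392 within these pairs (median 0.0157, against -0.0279 between other animals). Of the 20 pairs, 9 lay above 0.1, and 1 of 40 animals correlated best with its own pair. Each pair lies within mates or within peers, so it cannot be a block for mates minus peers. In 2 fits chosen after seeing the data, pairs were summed to 1 sample each, or taken as a block for females minus males among mates. Summed, mates minus peers over all nuclei ran from -0.01 for Chrm1 to 0.38 for Chrm5 (edgeR adjusted p of at least 0.834). With the block, females minus males ran from -0.05 for Chrm2 to 0.15 for Chrm4 (adjusted p of at least 0.868), and Chrm5 turned sign (0.03, uncalled). Neither fit called a receptor, over all nuclei or within classes. All other tests take animals as independent. Chrm2 levels rest on 23 UMIs in D1 and 36 in D2 nuclei.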
